A study of Mus musculus with 8 samples.

Results

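Mitochondrial ribosomal proteins are the nuclear-encoded protein part of the ribosome inside mitochondria, and their transcripts were measured by RNA-Seq in the quadriceps of mice given the chemotherapy Folfiri or its vehicle. The genes were chosen by name alone, as every gene listed under the symbol Mrpl (large subunit) or Mrps (small subunit) followed by a number and, at most, a letter. This gave 77 of the 12896 genes listed. The Folfiri group was 4 male CD2F1 mice, a hybrid laboratory strain, that were 8 weeks old when dosing began and carried no tumour. They received 5-fluorouracil at 30 mg/kg, leucovorin at 90 mg/kg and CPT-11 (irinotecan) at 24 mg/kg into the peritoneum 2 times a week for up to 5 weeks. The Vehicle group was 4 male CD2F1 mice of the same age that received the carrier only. Each library came from whole quadriceps, which holds fat, vessel, nerve and blood cells besides muscle fibres. In such bulk samples fewer cells of a type and less RNA per cell cannot be told apart.

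The mitochondrial ribosome translates the few proteins that mitochondrial DNA encodes, all of them subunits of the respiratory chain or of ATP synthase. Its rRNAs come from mitochondrial DNA, whereas its proteins are made in the cytosol from nuclear genes and imported. Many of them descend from bacterial ribosomal proteins, and others are found only in mitochondria. Skeletal muscle depends on this ribosome for its oxidative capacity. Of the 77 genes, 50 encode large subunit proteins and 26 small subunit proteins. The letter in a symbol does not always give the subunit, since Mrps30 and Mrps18a encode proteins of the large subunit. Mrps36 encodes a protein that is now placed in the 2-oxoglutarate dehydrogenase complex rather than in the ribosome. The 77 genes lie on 17 chromosomes, with 10 of them on chromosome 11, 8 on chromosome 17 and 7 on chromosome 6. No gene of the mitochondrial chromosome was among the genes analysed here, so the rRNAs and the translated products were not measured.

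Promoters were read because these genes share regulators in textbooks, among them NRF1 and the ETS factor GABP. The RefSeq table for build GRCm38.p6 held the promoters of 68 of the 77 genes, 74 promoters in all, each with 250 bases before and 50 bases from the transcription start. The 5 promoters below belong to genes whose values are described further on, and capitals mark the NRF1, ETS, YY1 or ZNF143 motif found on either strand. Each of the 5 holds such a motif, whereas the promoters of Mrpl10, Mrps15, Mrpl41 and Mrpl46, also described below, hold none of them. Mrpl43 lies at chr19:45006393-45006692 on the minus strand and holds the ETS motif CCGGAAG from bases -56 and -12, counted from the transcription start. Mrps22 lies at chr9:98601630-98601929 on the minus strand, with the ETS motif from base -11 and the ZNF143 motif (ACTACA, any 2 bases, TCCC) from base -49. Mrpl17 lies at chr7:105811038-105811337 on the minus strand, with the NRF1 motif (GCGCA, any base, GCGC) from base -49 and the ETS motif from base -237. Mrps12 lies at chr7:28741772-28742071 on the minus strand, with the ETS motif from base 2. Mrps11 lies at chr7:78782881-78783180 on the plus strand, with the YY1 motif ATGGCGGC on the opposite strand from base -110.
Mrpl43: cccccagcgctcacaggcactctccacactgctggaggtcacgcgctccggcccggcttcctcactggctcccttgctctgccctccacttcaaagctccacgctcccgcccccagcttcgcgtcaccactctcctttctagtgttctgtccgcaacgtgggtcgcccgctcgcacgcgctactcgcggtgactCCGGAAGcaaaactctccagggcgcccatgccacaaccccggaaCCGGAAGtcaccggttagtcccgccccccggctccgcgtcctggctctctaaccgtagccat
Mrps22: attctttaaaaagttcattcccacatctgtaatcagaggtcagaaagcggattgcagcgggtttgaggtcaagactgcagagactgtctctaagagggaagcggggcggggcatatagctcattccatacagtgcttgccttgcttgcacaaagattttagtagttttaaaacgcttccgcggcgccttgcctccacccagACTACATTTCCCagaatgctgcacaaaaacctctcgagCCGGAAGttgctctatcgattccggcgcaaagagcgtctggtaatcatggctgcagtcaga
Mrpl17: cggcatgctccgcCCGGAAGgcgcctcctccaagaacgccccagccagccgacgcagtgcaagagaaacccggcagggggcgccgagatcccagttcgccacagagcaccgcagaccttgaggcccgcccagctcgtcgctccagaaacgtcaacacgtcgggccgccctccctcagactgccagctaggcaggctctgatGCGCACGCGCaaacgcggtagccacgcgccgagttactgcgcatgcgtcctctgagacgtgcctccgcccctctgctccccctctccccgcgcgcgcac
Mrps12: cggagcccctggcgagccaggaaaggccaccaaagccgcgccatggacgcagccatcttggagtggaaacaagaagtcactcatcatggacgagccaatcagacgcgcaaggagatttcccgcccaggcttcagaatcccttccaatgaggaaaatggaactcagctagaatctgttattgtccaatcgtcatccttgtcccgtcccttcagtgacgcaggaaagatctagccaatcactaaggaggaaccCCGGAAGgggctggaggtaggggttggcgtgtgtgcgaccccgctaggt
Mrps11: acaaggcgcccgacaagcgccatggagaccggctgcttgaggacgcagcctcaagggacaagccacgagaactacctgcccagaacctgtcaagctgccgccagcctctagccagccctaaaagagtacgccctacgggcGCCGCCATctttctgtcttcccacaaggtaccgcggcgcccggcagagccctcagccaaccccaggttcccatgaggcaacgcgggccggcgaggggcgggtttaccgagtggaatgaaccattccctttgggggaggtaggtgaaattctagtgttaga

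The ETS motif was found in 33.8% of the 74 promoters, against 16.5% of the 12306 promoters of tested genes and 8.86% of all 32851 promoters in the table. NRF1 is a nuclear factor of respiratory genes, and its motif was found in 17.6% of the 74 promoters, against 9.57% of those of tested genes and 4.6% of all. For YY1, a zinc finger factor, the shares were 16.2%, 4.6% and 2.24% in the same order. The ZNF143 motif was in 6.76%, against 3.89% and 1.81%. General promoter elements were closer to the other tested genes. The GC box GGGCGG was in 52.7% against 61.6%, the CCAAT box CCAAT in 40.5% against 36.7%, the E-box CACGTG in 9.46% against 9.91%, and TATAAA in 6.76% against 7.51%. Both strands were searched with all 8 motifs, and a match describes the letters in the window without showing that a factor binds there.

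The 8 libraries held 11921092 to 21056818 counts in Folfiri and 8505985 to 16303015 counts in Vehicle. All 8 muscle markers were detected, at a summed level of 75580 to 151400 CPM (each library's counts relative to its total, corrected by TMM factors for composition) in Folfiri and 109600 to 164600 CPM in Vehicle. Transcripts of hepatocytes (10 of 11 markers detected) summed to 8.7 to 256 CPM in Folfiri and 0.785 to 10.5 CPM in Vehicle, with Folfiri 1 at 256 CPM and Folfiri 2 at 79.8 CPM. Brown adipocyte markers (4 of 4) summed to 1.95 to 4.82 CPM in Folfiri and 1.57 to 368 CPM in Vehicle. Vehicle 2 was the highest, followed by Vehicle 3 at 30.6 CPM. White adipocyte markers (6 of 6) reached 21.2 to 297 CPM in Folfiri and 18.4 to 468 CPM in Vehicle, again with Vehicle 2 highest. Macrophage markers (5 genes, all detected) summed to 59.3 to 95.9 CPM in Folfiri and 43.1 to 73.1 CPM in Vehicle. Erythroid markers (3 of 5) summed to 12.9 to 87.9 CPM in Folfiri and 56.2 to 113 CPM in Vehicle. The part of these other cells in the values below was not tested. Counts of higher, lower and positive values over all the mitochondrial ribosomal protein genes are also given without Folfiri 1 and Vehicle 2.

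All 77 genes were expressed in quadriceps, and each passed the minimum of 40 reads over the 8 libraries, with 167 (Mrpl23) to 16523 (Mrpl42) reads in total. The same minimum was passed by 12883 of the 12896 genes listed. Their median level was 32.8 CPM, compared with 14.97 CPM for all 12883 genes tested. Divided by transcript length, the most abundant was Mrpl33, encoding a small bacterial-type protein of the large subunit, at 276 CPM per kilobase. Mrpl42, encoding a large subunit protein found only in mitochondria, followed at 212 CPM per kilobase, and Mrpl30, a bacterial-type large subunit gene, at 113 CPM per kilobase. The middle of the order was Mrps35, a small subunit gene, at 26.1 CPM per kilobase. Mrpl23, which in bacteria has a counterpart beside the exit of the peptide tunnel, was lowest at 2.39 CPM per kilobase.

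The sum of the 77 genes was 3597, 2951, 3370 and 2914 CPM in Folfiri 1 to 4, and 3308, 2997, 2563 and 2546 CPM in Vehicle 1 to 4. Vehicle 1 and Vehicle 2 lay within the Folfiri range, and the groups overlapped. The means were 3208 ± 331 CPM in Folfiri and 2854 ± 368 CPM in Vehicle (SD, n = 4 each). Large subunit genes summed to 2049 to 2618 CPM in Folfiri and 1775 to 2372 CPM in Vehicle, and small subunit genes to 818 to 952 CPM in Folfiri and 738 to 917 CPM in Vehicle. The ratio of the large to the small subunit sum was 2.40 to 2.75 in Folfiri and 2.28 to 2.63 in Vehicle, so the balance of the subunits also overlapped between groups.

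None of the 77 genes passed the test in the Folfiri against Vehicle comparison. By edgeR's quasi-likelihood test, which adjusts over all genes tested, the lowest adjusted p among them was 0.452, and a single gene of the whole table was called (0.00776% of 12883). At an unadjusted p under 0.05, by the same test, 6 of the 77 (7.79%) had higher values in Folfiri, beside 5.48% of all genes tested, and 1 (1.3%) had lower values, beside 4.02%. The exact test of edgeR, DESeq2 and limma voom also called 0 of the 77. A leaning to positive values was visible, since 63 of 77 log2 fold changes (81.8%) were above 0, beside 51.4% of all genes. The median log2 fold change of the 77 was 0.18, beside 0.011 for all genes, and the values ran from -0.45 (Mrps12) to 0.61 (Mrps36), which are folds of 0.731 and 1.53. The count of 6 depended on the scaling, being 13 with library totals only, and on single libraries, being 0 without Vehicle 4, 2 without Folfiri 1 or without Folfiri 3, 3 without Vehicle 2 or without Vehicle 3 and 13 without Vehicle 1. Without both Folfiri 1 and Vehicle 2 it was 2. Positive log2 fold changes numbered 59 without Folfiri 1, 60 without Vehicle 2 and 57 without both. The count of 1 lower gene became 0 without Folfiri 1 and stayed 1 without Vehicle 2 or without both. Shares of all genes are not given for the counts with libraries left out, with voom or with library totals only.

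**Figure D1:**
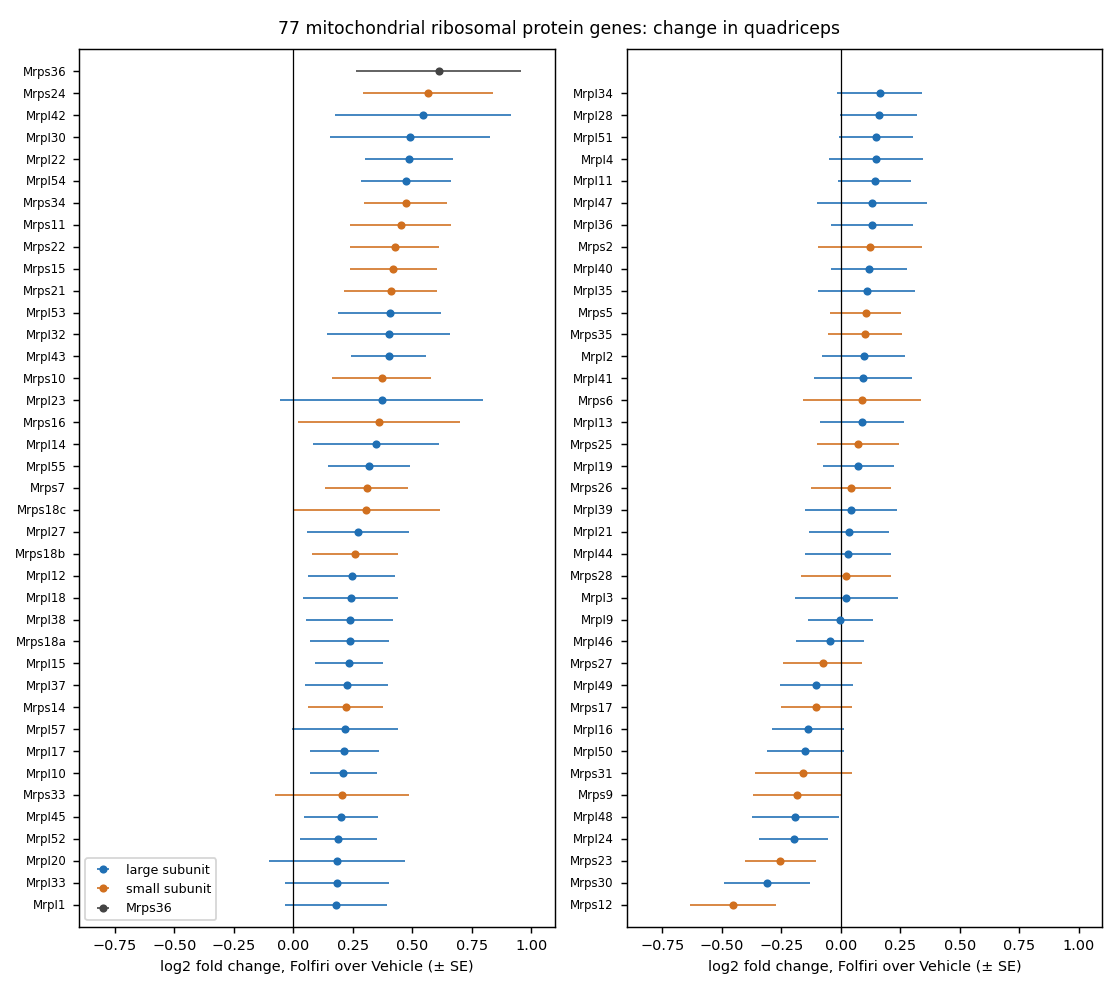
Log2 fold change of Folfiri over Vehicle for each of the 77 genes, ordered by value (vertical axis: gene symbol, horizontal axis: log2 fold change with its standard error, n = 4 each), coloured by subunit. The genes run down the left panel and on down the right panel. Most points lie at positive values, from 0.61 for Mrps36, the first gene of the left panel, to -0.45 for Mrps12, the last gene of the right panel, and none passed the adjusted test.

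Both subunits leaned the same way. Among large subunit genes 42 values were positive and 8 negative, with a median log2 fold change of 0.17. Among small subunit genes 20 were positive and 6 negative, with a median of 0.16. By class, the 30 bacterial-type large subunit genes had a median of 0.17 and the 20 mitochondria-specific ones also 0.17. The 16 bacterial-type small subunit genes had a median of 0.26 and the 10 mitochondria-specific ones 0.088. The mitochondria-specific classes also hold Mrps18a (large subunit) and Mrps18b (small subunit), which share a bacterial ancestor with Mrps18c.

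The small subunit supplied the smallest p. Mrps34 (chr17:25032065-25033218, plus strand, on mm9 as are all gene positions that follow) encodes a protein found only in mitochondrial ribosomes, whose loss in humans impairs mitochondrial translation. It stood at 39.7, 43.1, 52.1 and 37.6 CPM in Folfiri 1 to 4, against 38.7, 30.6, 28.5 and 26.3 CPM in Vehicle 1 to 4. All but Vehicle 1 were below the 4 Folfiri libraries, and Vehicle 1 lay between Folfiri 4 and Folfiri 1. The log2 fold change was 0.47 (SE 0.17). The quasi-likelihood test of edgeR gave an unadjusted p of 0.0181 and an adjusted p of 0.452.

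Mrps22 (chr9:98489150-98502098, minus strand), another small subunit gene specific to mitochondria and the source of the ETS and ZNF143 motifs shown above, gave 29.4, 30.5, 32.1 and 26.98 CPM in Folfiri, against 29.7, 22.8, 19.2 and 16.7 CPM in Vehicle. Here too Vehicle 1 alone reached the Folfiri libraries. Its log2 fold change was 0.43 (SE 0.19, edgeR's quasi-likelihood adjusted p = 0.512). Mrps15 (chr4:125724172-125732780, plus strand) has a bacterial counterpart that binds rRNA early in assembly, and it gave 77.0, 60.7, 63.5 and 59.8 CPM in Folfiri, against 62.5, 50.7, 44.3 and 37.1 CPM in Vehicle. Vehicle 1 exceeded Folfiri 2 and Folfiri 4, and the log2 fold change was 0.42 (SE 0.18, adjusted p = 0.505 by the same edgeR test).

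In the large subunit, Mrpl43 (chr19:45079504-45080932, minus strand), which carries the pair of ETS motifs printed above, was 37.8, 31.7, 36.1 and 33.0 CPM in Folfiri, against 31.6, 24.2, 22.9 and 26.1 CPM in Vehicle. The groups did not overlap, although Folfiri 2 and Vehicle 1 were nearly level. The means were 34.6 ± 2.77 CPM in Folfiri and 26.2 ± 3.82 CPM in Vehicle (SD, n = 4 each), a log2 fold change of 0.40 (SE 0.16) with an edgeR adjusted p of 0.471. Mrpl22 (chr11:57985156-57993082, plus strand), whose bacterial counterpart lines the peptide exit tunnel, gave 19.5, 14.6, 16.5 and 13.1 CPM in Folfiri, against 13.4, 10.4, 11.5 and 10.05 CPM in Vehicle. Only Vehicle 1 overlapped, by passing Folfiri 4, and the log2 fold change was 0.49 (SE 0.18, edgeR adjusted p = 0.46). Mrpl54, a large subunit gene on chromosome 10, gave 48.0, 34.7, 48.7 and 35.5 CPM in Folfiri and 37.5, 32.1, 25.1 and 25.1 CPM in Vehicle. Vehicle 1 again lay above the lower Folfiri libraries, and the log2 fold change was 0.47 (SE 0.19, edgeR adjusted p = 0.486).

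The 4 Folfiri libraries were all higher than the 4 Vehicle libraries in 4 of the 77 genes (5.19%), beside 2.87% of all genes tested, and all lower in 0, beside 2.66%. All were large subunit genes, namely Mrpl43, Mrpl15, Mrpl17 and Mrpl10. Mrpl15 (chr1:4763279-4775807, minus strand), a bacterial-type gene, gave 121, 117, 127 and 118 CPM in Folfiri, against 113, 110, 93.4 and 93.1 CPM in Vehicle. Folfiri libraries were close together and Vehicle 3 and 4 stood lowest, with means of 121 ± 4.67 CPM in Folfiri and 102 ± 10.7 CPM in Vehicle (SD, n = 4 each), but the edgeR adjusted p was 0.61. Mrpl10, which encodes the base of the stalk that recruits translation factors, gave 38.0, 37.9, 38.5 and 36.9 CPM in Folfiri and 34.4, 36.3, 31.0 and 29.1 CPM in Vehicle. Mrpl17, whose promoter above holds the NRF1 motif, gave 49.7, 45.7, 56.1 and 48.9 CPM in Folfiri and 45.7, 45.6, 43.4 and 37.9 CPM in Vehicle. Folfiri 2 and Vehicle 1 were equal to 3 digits in Mrpl17, so the gap between its groups was negligible. Both Mrpl10 and Mrpl17 had a log2 fold change of 0.21 (SE 0.14, edgeR adjusted p = 0.653).

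Values ran the other way in 14 genes, of which Mrps12 stood farthest from 0. Mrps12 (chr7:29524660-29526800, minus strand) encodes the counterpart of the bacterial protein at the decoding centre that governs accuracy and streptomycin sensitivity. It gave 21.3, 23.4, 18.5 and 29.7 CPM in Folfiri, against 29.6, 27.3, 34.5 and 35.7 CPM in Vehicle. Folfiri 4 alone reached the Vehicle range, passing Vehicle 1 and 2. The means were 23.2 ± 4.76 CPM in Folfiri and 31.8 ± 4.00 CPM in Vehicle (SD, n = 4 each), and the log2 fold change was -0.45 (SE 0.18). By the quasi-likelihood test of edgeR its unadjusted p was 0.0278 and its adjusted p 0.484. Mrps30, a large subunit gene whose chicken counterpart was first described as pro-apoptotic, gave 30.9, 34.4, 46.2 and 36.1 CPM in Folfiri, against 53.0, 51.7, 41.6 and 36.4 CPM in Vehicle. Folfiri 3 lay inside the Vehicle range, and the log2 fold change was -0.31 (SE 0.18, edgeR adjusted p = 0.596).

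Mrps23, a mitochondria-specific small subunit gene, gave 105, 92.6, 90.6 and 116 CPM in Folfiri and 124, 107, 126 and 125 CPM in Vehicle. Vehicle 2 was the low library of its group, and the log2 fold change was -0.25 (SE 0.15, edgeR adjusted p = 0.599). Mrps23 overlaps Cuedc1 on the same strand in the table's coordinates, so its reads could include those of its neighbour. Smaller negative values were those of the large subunit genes Mrpl24 (log2 fold change -0.20) and Mrpl48 (-0.19) and of Mrps9 (-0.18), with edgeR adjusted p of 0.682, 0.757 and 0.768. Mrps9 encodes a small subunit protein whose bacterial counterpart reaches the peptidyl site, and it gave 24.5, 25.9, 24.6 and 33.2 CPM in Folfiri and 29.9, 39.9, 26.4 and 26.4 CPM in Vehicle. Folfiri 4 was high within its group, and the groups overlapped. Mrpl24 and Mrpl48 overlap Rrnad1 and Rab6a on the opposite strand, and 9 of the 77 genes overlap another listed gene in this way or on the same strand.

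Some of the most abundant genes varied widely between libraries of a group. Mrpl42 gave 231, 147, 188 and 106 CPM in Folfiri and 193, 146, 63.8 and 56.8 CPM in Vehicle. Folfiri 1 and Vehicle 1 were high and Vehicle 3 and 4 low, so that the means of 168 ± 53.7 CPM in Folfiri and 115 ± 65.9 CPM in Vehicle (SD, n = 4 each) lay within the spread (log2 fold change 0.55, SE 0.37, edgeR adjusted p = 0.655). Mrpl30 was likewise high in Folfiri 1 and Vehicle 1 and low in Vehicle 3 and 4, with 140, 71.8, 86.1 and 67.4 CPM in Folfiri and 103, 79.7, 36.8 and 39.1 CPM in Vehicle. Its log2 fold change was 0.49 (SE 0.34, edgeR adjusted p = 0.661). With each library left out in turn it ran from 0.21 without Folfiri 1 to 0.81 without Vehicle 1, and that of Mrpl42 from 0.32 without Vehicle 4 to 0.92 without Vehicle 1. Mrpl33 was 209, 113, 111 and 113 CPM in Folfiri and 142, 118, 110 and 111 CPM in Vehicle. Folfiri 1 alone set its positive log2 fold change of 0.18 (SE 0.22, edgeR adjusted p = 0.807), which was -0.10 without that library. Among the rarest genes, Mrpl23 gave 1.29, 2.00, 1.36 and 1.67 CPM in Folfiri and 1.57, 0.565, 0.654 and 2.01 CPM in Vehicle, Mrps33 3.08 to 5.17 CPM in Folfiri and 2.09 to 3.94 CPM in Vehicle, and Mrpl27 4.55 to 5.89 CPM in Folfiri and 3.53 to 4.99 CPM in Vehicle. In all of these the groups overlapped.

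**Figure D2:**
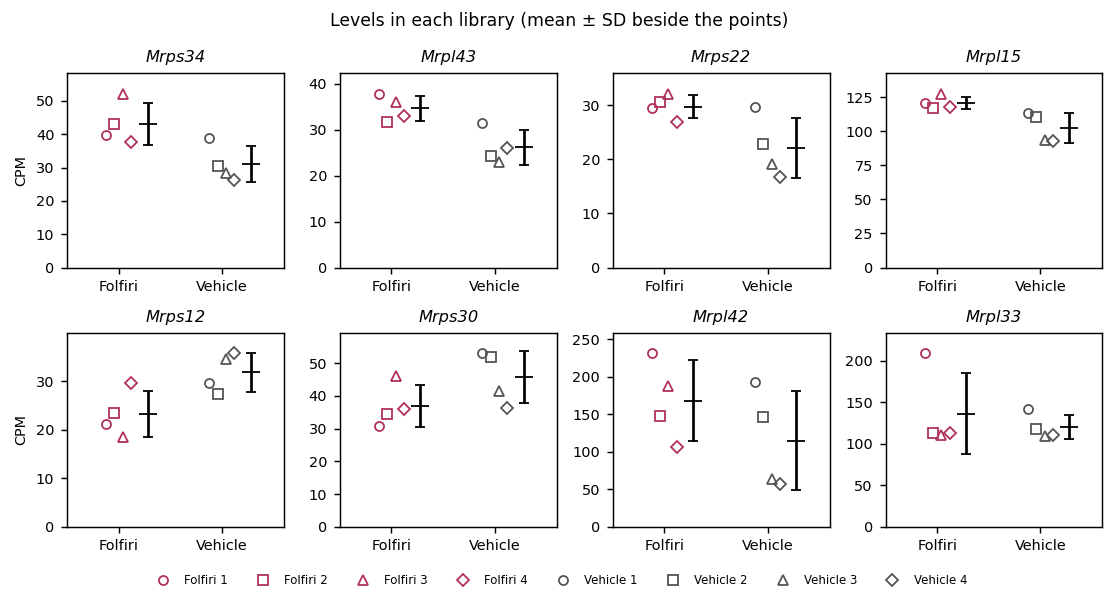
Level of 8 genes in every library (vertical axis: CPM after TMM scaling, from 0, horizontal axis: Folfiri left and Vehicle right), with a symbol for each library and the mean ± SD of 4 libraries beside the points. Mrpl43 and Mrpl15 have no overlap between groups, Mrps34 and Mrps22 overlap through Vehicle 1, and Mrpl42 has its lowest levels in Vehicle 3 and Vehicle 4.

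The paralogues Mrps18a, Mrps18b and Mrps18c derive from 1 bacterial protein, the first being placed in the large subunit and the others in the small. Mrps18a gave 56.6, 46.8, 53.7 and 37.6 CPM in Folfiri and 46.5, 42.8, 37.9 and 37.9 CPM in Vehicle, Mrps18b 15.9 to 26.3 CPM in Folfiri and 16.0 to 17.6 CPM in Vehicle, and Mrps18c 10.6 to 26.1 CPM in Folfiri and 8.89 to 21.3 CPM in Vehicle. Their log2 fold changes were 0.24 (SE 0.17), 0.26 (SE 0.18) and 0.31 (SE 0.31), all with overlapping groups. Single libraries moved them, since Mrps18a was 0.16 without Folfiri 1, Mrps18b 0.097 without Folfiri 3, and Mrps18c 0.071 without Folfiri 1 and 0.56 without Vehicle 2. Mrpl12, the stalk protein that also binds the mitochondrial RNA polymerase in human cells, gave 102, 58.4, 67.3 and 74.0 CPM in Folfiri and 65.1, 58.6, 61.7 and 68.9 CPM in Vehicle. Folfiri 1 was the high library, and the log2 fold change was 0.25 (SE 0.18, edgeR adjusted p = 0.684), or 0.065 without that library. Mrpl41, tied to p53 and apoptosis in human cells, gave 6.33 to 9.33 CPM in Folfiri and 5.97 to 8.54 CPM in Vehicle. Mrps36, of the 2-oxoglutarate dehydrogenase complex, gave 27.5, 12.6, 24.5 and 13.2 CPM in Folfiri and 18.7, 16.3, 8.24 and 7.15 CPM in Vehicle. Folfiri 1 and 3 were high and Vehicle 3 and 4 low, and its log2 fold change of 0.61 (SE 0.35, edgeR adjusted p = 0.587) was the highest of the 77.

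Transcript length moved with these values. The 77 transcripts are short, with a median of 1053 bases against 2941 for all genes tested, and 31 of them are under 1000 bases. Those 31 had a median log2 fold change of 0.25, with 29 positive, and the other 46 a median of 0.12, with 34 positive. The same held for genes in general, since the 1026 tested genes under 1000 bases had a median of 0.20 with 72.4% positive, and the 11857 longer genes a median of -0.0036 with 49.5% positive. Of the 31 short genes 4 had higher and 1 had lower values at an unadjusted p under 0.05, beside 14.5% and 1.95% of the 1026. Set against the median of the other tested genes in the same length bin, 48 of the 77 lay above and 29 below, with a median difference of 0.069 on the log2 scale. In the bin of 500 to 750 bases the 15 members had a median log2 fold change of 0.36 and all genes 0.25, in the bin of 750 to 1000 bases the 13 members had 0.13 and all genes 0.19, and in the bin of 1000 to 1500 bases the 23 members had 0.16 and all genes 0.12. The 11 members of 1500 to 2000 bases had -0.0021 and all genes 0.053. The longer bins hold few members, and there their medians were above those of all genes. These were 0.13 for 6 members against 0.021 at 2000 to 3000 bases, 0.14 for 4 members against -0.020 at 3000 to 5000 bases, and 0.14 for 2 members against -0.079 from 5000 bases on. The 3 members under 500 bases had 0.19, as did all genes there. Across genes, which are not independent replicates, Spearman's rho of length and log2 fold change was -0.41 over the 77 genes and -0.22 over the 12883.

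**Figure D3:**
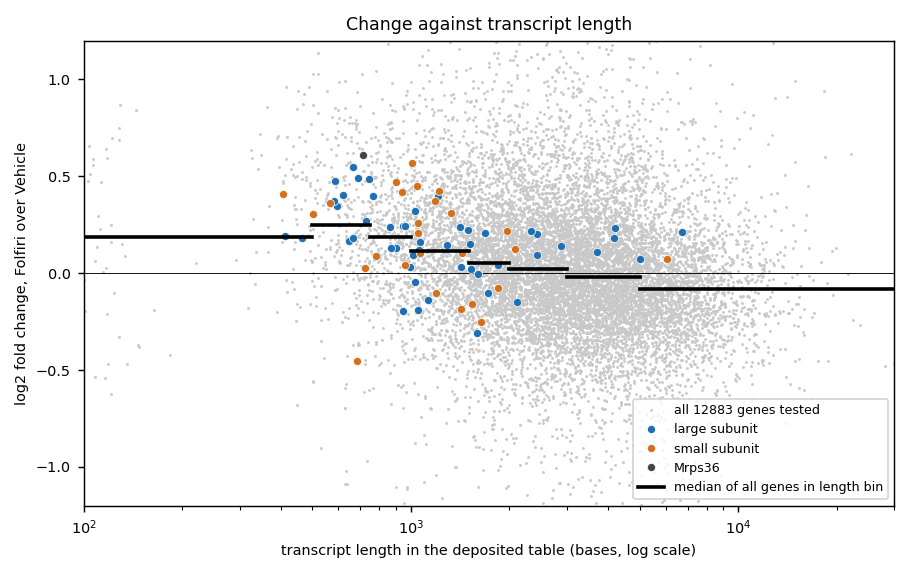
Log2 fold change of Folfiri over Vehicle (vertical axis) against transcript length in bases (horizontal axis, log scale) for all 12883 genes tested in grey, with values beyond the axis limits not drawn, and the 77 genes in colour. Black bars are medians of all genes in each of 8 length bins, falling to -0.079 in the longest, and most coloured points lie at the short end, where the bars are above 0.

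Each library's trend of log2 CPM with length was then taken out as an offset in the fit, an alternative added after the data were seen. The offset was fitted on the same counts without regard to group. It therefore also removes any group difference shared by transcripts of like length. With it the leaning of the 77 genes was smaller. The median log2 fold change became 0.034, with 45 positive and 32 negative values. Unadjusted p under 0.05, again from edgeR's quasi-likelihood test, was then found for 0 higher and 4 lower genes, beside 4.66% and 4.38% of all genes. Those 4 were Mrps12 (log2 fold change -0.70, adjusted p = 0.448), Mrpl24 (-0.38), Mrps23 (-0.32) and Mrps30 (-0.39), and none was called.

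Single libraries differed in how much of the short transcripts they held. Median deviations of the 31 short genes from their gene means, on the log2 scale, were 0.46, -0.009, 0.23 and -0.052 in Folfiri 1 to 4, and 0.11, -0.12, -0.33 and -0.28 in Vehicle 1 to 4. For all 1026 short genes they were 0.39, -0.043, 0.14 and 0.014 in Folfiri, and 0.0065, -0.13, -0.13 and -0.16 in Vehicle. Folfiri 1 was the highest library and Folfiri 3 the next in both sets, while Vehicle 3 and 4 were the lowest in both. The sets differed in Folfiri 4, where the medians had opposite signs near 0, and in Vehicle 1, where the 31 genes were above 0 and the 1026 close to it. The 46 longer genes had 0.027, 0.018, 0.14 and 0.027 in Folfiri, and 0.090, -0.009, -0.18 and -0.14 in Vehicle. For all longer genes the deviations were 0.0016 to 0.017 in Folfiri and 0.0029 to 0.017 in Vehicle. These are most of the genes tested, and TMM scaling places the bulk of genes near 0 in every library. What set the share of short transcripts in a library was not tested.

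**Figure D4:**
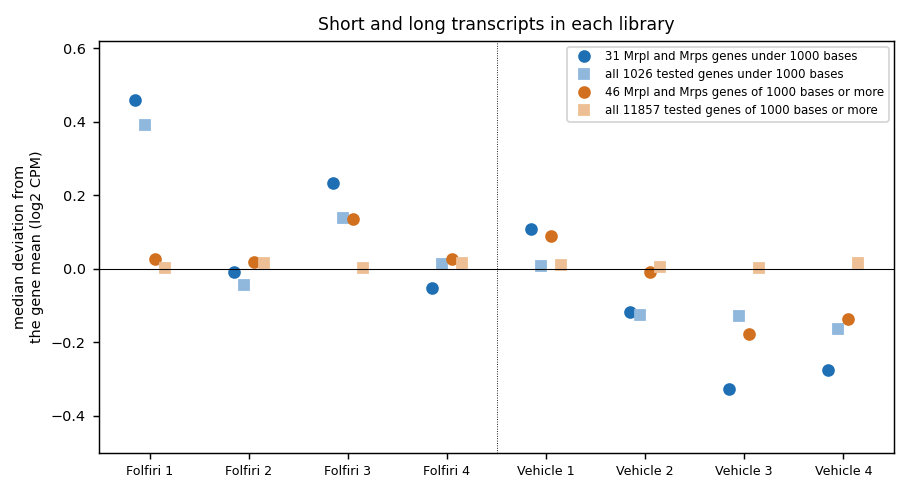
Median deviation from the gene mean (vertical axis, log2 CPM) in each library (horizontal axis, Folfiri 1 to 4 left and Vehicle 1 to 4 right), for the 77 genes and for all tested genes (circles and squares), split at 1000 bases. Short genes of both sets are highest in Folfiri 1, at 0.46 and 0.39, and lie below 0 in Vehicle 2 to 4.

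Genes that start beside each other had mixed signs. Mrps11 (chr7:85928017-85937874, plus strand) and Mrpl46 (chr7:85920227-85927975, minus strand) start 42 bases apart on opposite strands, and the Mrps11 promoter printed above covers the region between them. Mrps11 gave 15.4, 15.1, 12.1 and 13.2 CPM in Folfiri, against 14.0, 10.6, 7.45 and 8.52 CPM in Vehicle, where only Vehicle 1 lay in the Folfiri range. Mrpl46 gave 25.6, 23.2, 26.3 and 26.2 CPM in Folfiri and 25.3, 24.8, 28.9 and 25.5 CPM in Vehicle, with overlapping groups. The log2 fold changes were 0.45 (SE 0.21, edgeR adjusted p = 0.534) and -0.044 (SE 0.14, edgeR adjusted p = 0.938), and the difference between the genes was not tested. In all, 21 of the 77 genes have a listed neighbour that starts within 1000 bases on the opposite strand and is transcribed away from the gene. Mrps11 and Mrpl46 are both among the 21, each as the neighbour of the other. Of these 21, 7 had the sign of the neighbour. The pairs named next were all of opposite sign. Mrps34 (log2 fold change 0.47) is paired with Eme2 (-0.20), Mrpl43 (0.40) with Peo1 (-0.23), which encodes the mitochondrial DNA helicase, and Mrps12 (-0.45) with Sars2 (0.17), the mitochondrial seryl-tRNA synthetase. Mrpl49 (-0.10) is paired with Fau (0.90), which encodes a protein of the cytosolic ribosome. Scaled by library totals only, Mrpl46 (0.085) and Mrpl49 (0.019) were positive, and Sars2 was -0.013 without Folfiri 4.

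Other components of the same pathway were taken from 5 lists with 55 tested genes, of which 0 were called by edgeR's quasi-likelihood test. The same test gave 0 higher and 2 lower genes at an unadjusted p under 0.05, beside 5.48% and 4.02% of all genes. Of the 6 mitoribosomal proteins under other names 4 were positive, with a median log2 fold change of 0.12. They included Aurkaip1 (0.19), a small subunit protein gene, and Ict1 (0.18), a peptidyl-tRNA hydrolase within the large subunit. Also among them, Ptcd3 (-0.16) stood at 73.1 ± 17.5 CPM in Folfiri and 81.6 ± 13.8 CPM in Vehicle (SD, n = 4 each). Ptcd3 was 48.0 CPM in Folfiri 1, and without that library its log2 fold change was -0.0021. Of the 15 translation factors 6 were positive and 9 negative, with a median of -0.14. Their log2 fold changes ran from -0.52 to 0.70. Gfm2, which splits the mitochondrial ribosome after termination, gave 53.4, 96.1, 99.7 and 95.7 CPM in Folfiri, against 125, 122, 119 and 126 CPM in Vehicle. The groups did not overlap, with Folfiri lower, and the log2 fold change was -0.51 (SE 0.20, edgeR adjusted p = 0.463). Lrpprc, which stabilises mitochondrial mRNAs, gave 59.4, 175, 147 and 183 CPM in Folfiri and 198, 233, 162 and 213 CPM in Vehicle. Folfiri 1 was low in both genes, and for Lrpprc the groups overlapped (log2 fold change -0.52, SE 0.29, edgeR adjusted p = 0.583). Without Folfiri 1 the log2 fold changes were -0.34 for Gfm2 and -0.26 for Lrpprc.

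Assembly factors of the mitochondrial ribosome (18 tested) had 8 positive and 10 negative values, with a median log2 fold change of -0.014. Malsu1, which keeps the subunits apart during assembly, gave 116, 81.9, 73.1 and 79.1 CPM in Folfiri and 98.5, 74.8, 139 and 136 CPM in Vehicle, with overlapping groups. Of 6 genes for transcription of mitochondrial DNA 2 were positive and 4 negative, with a median of -0.12. Tfb2m, a partner of the mitochondrial RNA polymerase, gave 5.96, 3.12, 3.32 and 3.68 CPM in Folfiri and 2.05, 3.23, 2.22 and 3.05 CPM in Vehicle. Its log2 fold change was 0.60 (SE 0.30, edgeR adjusted p = 0.55), or 0.35 without Folfiri 1. Tfam, which packages mitochondrial DNA, gave 67.3, 62.5, 59.2 and 57.7 CPM in Folfiri and 82.1, 66.6, 66.6 and 65.7 CPM in Vehicle. Only Folfiri 1 exceeded any Vehicle library in Tfam (log2 fold change -0.19, SE 0.15, edgeR adjusted p = 0.697).

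Among 10 nuclear regulators of mitochondrial genes 5 were positive and 5 negative, with a median log2 fold change of -0.065. Ppargc1a, the coactivator PGC-1alpha, gave 46.7, 58.1, 53.7 and 42.8 CPM in Folfiri, against 90.9, 152, 44.9 and 49.7 CPM in Vehicle. Vehicle 2, the library with the most brown adipocyte transcripts (368 CPM), was highest, and Vehicle 3 and 4 lay within the Folfiri range. Brown adipocyte markers summed to 30.6 CPM in Vehicle 3 and to 1.57 CPM in Vehicle 1, whose Ppargc1a level was the next highest. The part of these cells in the Ppargc1a values was not tested. Its log2 fold change was -0.75 (SE 0.33, edgeR adjusted p = 0.51), or -0.30 without Vehicle 2. Gabpa, a subunit of the factor whose ETS motif was counted above, gave 44.7, 54.8, 42.5 and 46.4 CPM in Folfiri and 59.8, 59.5, 49.4 and 55.7 CPM in Vehicle. Folfiri 2 alone reached the Vehicle range (log2 fold change -0.25, SE 0.15, edgeR adjusted p = 0.598). Transcripts of the last 4 lists are longer than those of the mitochondrial ribosomal proteins, with medians of 2534, 1785, 2576 and 5115 bases.

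Cytosolic ribosomal proteins, which build the ribosomes outside mitochondria and have short transcripts too (median 706.5 bases), leaned the same way. Of 72 such genes 70 were positive, with a median log2 fold change of 0.54. At an unadjusted p under 0.05, 31 (43.1%) had higher values. The share was 7.79% of the 77 mitochondrial ones, 5.48% of all genes tested and 14.5% of the tested genes under 1000 bases. None of the 72 was called by edgeR's quasi-likelihood test, and the difference between the sets was not tested.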

How the data were processed

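RNA-Seq libraries from the quadriceps of 4 Folfiri and 4 Vehicle mice were compared, grouped by the treatment in the labels. The deposited raw counts are the authors' numbers of reads per RefSeq gene in each library, unscaled. For these the authors sequenced on the SOLiD platform with a strand-specific kit, mapped reads to mm9 with bfast and counted them with bamutils. The strand setting of the counting is not given in the sources used here. The 8 columns of normalised values per sample were not used, nor were the authors' columns of log2 fold change, p-value and FDR from their own edgeR comparison. The 0-based starts of the table were raised by 1.

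With R 4.3.3 and edgeR 4.0.16, counts were scaled by TMM and the 12883 genes with at least 40 reads over the 8 libraries were tested by the quasi-likelihood test without covariates, and genes were called at an adjusted p (Benjamini-Hochberg) under 0.05. Variation between libraries of a group beyond that of counting had a common coefficient of 0.261, with 6 residual degrees of freedom. The fit was tested on simulated data. Each p-value weighs the difference between the groups against the spread between libraries within them, which holds mouse and library differences alike. The alternatives were edgeR's exact test, DESeq2 1.42.0, voom of limma 3.58.1, RLE factors, library totals only and other filters. A replicate block, leaving out libraries and a length offset were also run, the last chosen after seeing the data. Outside the 18 alternatives, and after seeing the data, the 68 genes overlapping no listed gene were summarised from the main fit. Of the 68, 58 had positive values, with a median log2 fold change of 0.20. Total counts ran from 8505985 to 21056818 per library.

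The genes and lists were chosen with earlier results of these data known. Genes are named for the 6 smallest p in each direction, groups without overlap, the 5 highest and 3 lowest levels, the Mrps18 paralogues and known second roles, and by smallest p or known function in the other lists. Neighbours, among them Mrps11 and Mrpl46, and ranks per length were chosen after their values were seen. Motifs were searched in RefSeq promoters of GRCm38.p6, and no coordinates were converted between builds.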

Additional observations from a re-analysis of the deposited data

Results flagged for a closer look

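Within a group of 4 libraries, a library was singled out when its gap to the nearest of the others took up most of the whole range, by Dixon's 95% critical value. This was asked of the levels of the 44 genes named with values and of the summed levels of all 77 genes and of each subunit, in Folfiri and in Vehicle. Of these 94 groups 5 stood out, and chance alone gives about 1 in 20. Mrpl33 had 209 CPM in Folfiri 1, against 111 to 113 CPM in the other Folfiri libraries. Mrps23 had 107 CPM in Vehicle 2, while the rest of the Vehicle group had 124 to 126 CPM. Mrps9 had 33.2 CPM in Folfiri 4, against 24.5 to 25.9 CPM in the other Folfiri libraries. Gfm2 had 53.4 CPM in Folfiri 1, while the rest of its group had 95.7 to 99.7 CPM. Tfam had 82.1 CPM in Vehicle 1, while the rest of its group had 65.7 to 66.6 CPM.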

How the results depend on the processing

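The number of the 77 genes called was 0 under all 18 alternatives. The lowest adjusted p among them was 0.393 by edgeR's exact test, 0.336 by DESeq2 and 0.283 by limma voom, although the first of these tools called 65 higher and 21 lower genes in the whole table and DESeq2 52 and 25. The number of genes higher at an unadjusted p under 0.05 was 6. It became 8 with voom, 13 with library totals only, 0 with the length offset and 2 without Vehicle 2 and Folfiri 1 together. With each library left out in turn it ran from 0 to 13. The number lower was 1, and it became 2 with voom, 0 with library totals only, 4 with the length offset and 0 to 1 with each library left out. The median log2 fold change of 0.18 became 0.034 with the length offset and 0.31 with library totals only, which moved the median of all genes to 0.14, and it ran from 0.13 to 0.23 with each library left out. The length offset turned 18 of the 77 genes from positive to negative and 0 the other way. Among the 44 genes named with values, those it turned were Mrpl33 (-0.21), Mrps18c (-0.066) and Ict1 (-0.076), and library totals only turned Mrpl46 (0.085) and Mrpl49 (0.019). Leaving out each library in turn gave -0.10 to 0.27 for Mrpl33 and -0.028 to 0.21 for Mrpl41, both negative without Folfiri 1, -0.013 (without Folfiri 4) to 0.36 for Sars2 and -0.069 to 0.0074 (without Vehicle 3) for Mrpl46. Without Vehicle 2 and Folfiri 1 together, Mrpl33 was -0.10, Mrpl41 -0.10, Mrps33 -0.0081 and Mrps9 0.018, where Mrps9 ran down to -0.30 without Folfiri 4, and Ptcd3 was 0.079, where it ran down to -0.25 without Folfiri 4. The cause of these shifts was not tested. Over these genes and alternatives, 14 values reversed and 778 kept their direction and side of the threshold.

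With the replicate number as a block, 15 of the 77 genes were higher at an unadjusted p under 0.05, beside 7.43% of all genes, and none was called (lowest edgeR adjusted p 0.268). The numbers share no stated origin, so same-numbered libraries were not taken as pairs. Their deviations from the group means correlated at 0.30, 0.14, 0.056 and 0.20, and those of other pairs at -0.295 to 0.294. Folfiri 1 and Folfiri 2 correlated best with their own number, whereas Folfiri 3 correlated best with Vehicle 2 and Folfiri 4 with Vehicle 3. These values do not settle whether the numbers mark pairs. With 4 libraries a group, and a median SE of 0.18 on the log2 scale, changes of the size seen here could not be separated from the spread.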
